A study of Homo sapiens with 6 samples.

Results

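Exonic open regions away from start sites were taken from ATAC-seq lists of 6 libraries of MCF10A cells. ATAC-seq marks accessible DNA by the fragments that the Tn5 transposase cuts out of it. The open regions of the 6 lists were merged on chromosomes 1 to 22 and X where they overlapped or touched, which gave 49519 merged regions. A merged region was a member when its center lay in an exon of a protein-coding gene of GENCODE release 44 and more than 2 kb from the 5' end of every gene of any type. This rule, which used position alone, gave 2080 members in 1885 genes. By the canonical transcript of each gene, 400 members were centered on an internal exon, 569 on the last exon, 218 on a first exon, 8 on the exon of a single-exon transcript, and 885 on an exon of another transcript only.

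MCF10A cells are an established line of human mammary epithelium that does not form tumors, and they were WT by their labels. All cells were first kept for 30 min in a phosphate-free HEPES-buffered salt solution and then for 30 min in the same solution alone (control), with 50 μM TPA (tris(2-pyridylmethyl)amine, a membrane-permeable Zn2+ chelator) or with 30 μM ZnCl2. There were 2 libraries per group, which the methods call biological and the results call technical replicates, so p-values measure the spread between these libraries and no more. Paired values below give replicate 1 and then replicate 2 of a group. Near gene starts, the basal mammary markers ITGB4, ITGA6, LAMB3 and SFN were open in all 6 libraries, KRT5, KRT17 and EGFR in all but ZnCl2 replicate 2, KRT14 and CDH3 in 4 libraries, COL17A1 in the 2 TPA libraries and TP63 in none. Of the 20 luminal, blood, endothelial, muscle, neural and hepatocyte markers, FOXA1 and CD14 were open in all 6 libraries and GFAP in ZnCl2 replicate 1 alone. The starts of the epithelial genes CDH1 and EPCAM were called in 3 and in 1 of the libraries, neither of them in control.

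Open chromatin is best known at promoters, where transcription begins, and at enhancers, which lie mostly in introns and between genes. An exon holds coding or untranslated sequence, and is usually richer in G and C than the introns beside it. Internal exons of human genes are short, while last exons are long and mostly 3' untranslated. Many genes have several transcripts, and the first exon of one can lie far downstream of the start of the gene, so that an exonic region may also sit at an alternative promoter. An open region is far wider than most exons, and a center in an exon does not show that the exon is what was open.

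The bases at the centers of 5 coding members are shown because these members are described below and the exon is only part of what was called open. The strand is that of the gene in hg38, capitals mark bases in exons of the canonical transcript and lower case marks introns. NFE2L1 (chr17:48051426-48051725, internal exon 2 of 6) and SDR42E2 (chr16:22190011-22190310, last exon 13 of 13) were among the highest in all 6 libraries. SRGAP2C (chr1:121374746-121375045, internal exon 7 of 10) was too, in sequence that has near copies elsewhere. MARCO (chr2:118974261-118974560, around internal exon 5 of 17) was chosen among members called with TPA, and HERC2 (chr15:28152626-28152925, internal exon 70 of 93) among members called with ZnCl2.
NFE2L1: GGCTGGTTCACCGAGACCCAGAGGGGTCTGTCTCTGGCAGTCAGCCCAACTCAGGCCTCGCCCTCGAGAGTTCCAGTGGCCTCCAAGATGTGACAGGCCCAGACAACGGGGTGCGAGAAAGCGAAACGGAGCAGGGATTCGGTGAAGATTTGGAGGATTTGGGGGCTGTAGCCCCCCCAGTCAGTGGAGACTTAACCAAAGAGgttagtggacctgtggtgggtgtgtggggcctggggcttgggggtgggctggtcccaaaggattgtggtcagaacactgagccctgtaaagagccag
SDR42E2: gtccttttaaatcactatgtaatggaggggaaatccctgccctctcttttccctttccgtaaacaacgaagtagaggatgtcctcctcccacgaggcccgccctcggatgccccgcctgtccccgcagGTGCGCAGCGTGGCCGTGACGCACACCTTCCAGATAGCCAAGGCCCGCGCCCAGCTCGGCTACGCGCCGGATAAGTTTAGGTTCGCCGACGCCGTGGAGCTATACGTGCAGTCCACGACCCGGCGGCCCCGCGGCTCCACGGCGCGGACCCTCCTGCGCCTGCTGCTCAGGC
SRGAP2C: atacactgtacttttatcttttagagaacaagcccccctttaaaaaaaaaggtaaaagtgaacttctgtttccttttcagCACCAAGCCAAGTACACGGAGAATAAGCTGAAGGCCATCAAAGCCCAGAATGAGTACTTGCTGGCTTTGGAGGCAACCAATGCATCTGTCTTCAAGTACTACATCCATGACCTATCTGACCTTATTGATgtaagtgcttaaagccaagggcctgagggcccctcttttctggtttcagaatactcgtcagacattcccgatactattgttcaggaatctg
MARCO: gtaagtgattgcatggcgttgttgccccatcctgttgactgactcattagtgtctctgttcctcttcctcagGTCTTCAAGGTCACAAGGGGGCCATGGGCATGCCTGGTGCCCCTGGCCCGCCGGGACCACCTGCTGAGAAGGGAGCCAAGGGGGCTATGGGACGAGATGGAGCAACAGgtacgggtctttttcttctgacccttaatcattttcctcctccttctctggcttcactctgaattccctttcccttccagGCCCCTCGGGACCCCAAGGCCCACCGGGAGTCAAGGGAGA
HERC2: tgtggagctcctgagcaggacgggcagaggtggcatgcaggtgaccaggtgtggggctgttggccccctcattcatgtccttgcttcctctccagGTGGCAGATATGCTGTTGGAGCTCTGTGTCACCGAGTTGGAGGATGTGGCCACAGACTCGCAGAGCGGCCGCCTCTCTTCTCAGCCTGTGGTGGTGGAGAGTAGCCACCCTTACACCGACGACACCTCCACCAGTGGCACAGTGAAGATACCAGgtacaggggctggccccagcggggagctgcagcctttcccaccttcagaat

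In these windows of 300 bases, exons took 203 bases at NFE2L1, 172 at SDR42E2, 129 at SRGAP2C, 148 at MARCO and 154 at HERC2. The GC content was 60% at NFE2L1, 64.7% at SDR42E2, 42.7% at SRGAP2C, 57.3% at MARCO and 61% at HERC2. The SDR42E2 window held 31 CpG dinucleotides and the others between 3 and 8. The letters TGANTCA, the core of AP-1 sites, which read the same on both strands, occurred once, in the intron bases of the MARCO window (bases 40 to 46 from its 5' end). The letters GGAATG, the core of TEAD sites, occurred once over both strands, in the intron bases of the SRGAP2C window (bases 272 to 277). Letters in a window are a description and do not show that a factor was bound.

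Exonic members were more frequent per base than intronic regions. The exons of protein-coding genes away from gene starts cover 88.7 Mb and held 23.4 members per Mb. The introns cover 1117 Mb and held 16804 regions, or 15.04 per Mb. Of the 2080 members, 600 were centered on coding sequence, 634 on 3' untranslated, 426 on 5' untranslated and 420 on the exon of a transcript with no coding sequence. Of the 400 internal-exon members 384 were coding, and of the 569 last-exon members 492 were 3' untranslated.

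Many members lay near the start of an annotated transcript, canonical or not. Within 2 kb of the 5' end of at least 1 transcript were 1157 members (55.6%), against 17.8% of the intronic regions. The 2 shares are not on equal terms, since every transcript begins with an exon. Among last-exon members the share was 16.0%, among internal-exon members 50.5%, among first-exon members 99.5% and among those on an exon of another transcript 72.7%. The other 923 members were over 2 kb from every transcript start and are described separately below.

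The exons under internal-exon members had a median length of 161 bp, against 123 bp over all 170763 internal exons of canonical transcripts. Exons over 1000 bp made up 7.5% of those under internal-exon members and 0.723% of all internal exons. For last exons the medians were 2902 bp under members and 1415 bp over all 18857. A longer exon offers more bases for a center to fall on, so the rule itself favors long exons. From the start to the end of the exon, its 4 equal parts held 158, 137, 137 and 137 last-exon members, with no test of evenness, and the median distance from the center to the 3' end was 1340 bp.

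Merged regions were wide beside their exons. Members had a median width of 2070 bp, against 1660 bp for intronic regions, and ranged from 210 to 54580 bp. Exons of protein-coding genes took at least 50% of the bases in 26.5% of the internal-exon members and in 85.2% of the last-exon members. In all, 98 members were over 10 kb wide, and a library could then be called far from the center. Among members called in a library, the call held the center in 76.8% and 95.9% in untreated cells 1 and 2, in 82.3% and 85.3% in the TPA replicates and in 90.2% and 88.1% in the ZnCl2 replicates. For last-exon members in control replicate 1 it was 63.0%.

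Members were richer in G and C than other regions away from gene starts. Their median GC content was 50.8%, against 44.8% in intronic, 45% in intergenic and 53.1% in start-site regions. Internal-exon members had a median of 50.5%, last-exon members 49.6% and first-exon members 54.2%. The CpG ratio, observed CpG over that expected from base content, was 0.291 in members and 0.217 in intronic regions, and it was 0.355 in members near a transcript start against 0.245 in those far from one. The AP-1 letters TGANTCA were found within 150 bases of the center in 21.2% of members, 32.6% of intronic regions and 27.0% of all merged regions. Among members, 28.4% of those far from transcript starts and 15.5% of those near one held them. The TEAD letters GGAATG were in 15.4% of members and 19.1% of all merged regions, and the CTCF consensus in 2.07% and 1.51%.

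The deposited lists differed in length, and with them the number of members called. On chromosomes 1 to 22 and X, the control lists held 25025 and 44637 regions, the TPA lists 35900 and 41374 and the ZnCl2 lists 38055 and 18883. The control replicates called 957 and 1784 members, the TPA replicates 1341 and 1532, and the ZnCl2 replicates 1667 and 788. These are 46.0%, 85.8%, 64.5%, 73.7%, 80.1% and 37.9% of members. Of all merged regions, the same libraries called 47.6%, 86.9%, 68.3%, 78.9%, 72.4% and 36.7%. The shares of members had the order of the list lengths except that ZnCl2 replicate 1 called more members than the longer list of TPA replicate 2, and the groups overlapped (TPA minus control 3.17 percentage points, two-sided exact permutation p = 1, ZnCl2 minus control -6.88, exact p = 0.667). The lists carry no read counts, so the depth of each library is unknown.

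Calls were therefore also compared with an equal number of regions per library, the 18883 with the highest score given by the authors' caller. A member without such a call may still be in the full list with a lower score. On this footing the control replicates both called 35.0% of members, the TPA replicates 33.0% and 32.4%, and the ZnCl2 replicates 39.9% and 37.9%. Of all merged regions, 36.2%, 37.1%, 36.5%, 36.8%, 36.5% and 36.7% were called, so members lay below this share in the control and TPA libraries and above it in the ZnCl2 libraries. The TPA libraries were both below and the ZnCl2 libraries both above the control libraries. The difference was -2.28 percentage points for TPA and 3.92 for ZnCl2 (two-sided exact permutation p = 0.333 for each, the smallest that 2 libraries against 2 can give). This separation depended on how calls were counted. With calls covering at least 50% of the region, the groups overlapped, at -4.495 points for TPA and 7.81 for ZnCl2 (exact p = 1 for each). TPA also overlapped control with members at least 50% exonic (-0.732, exact p = 0.667) and for calls at the center of the region (-2.60, exact p = 1). The TPA and ZnCl2 comparisons share the control libraries and are not independent of each other.

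**Figure D1:**
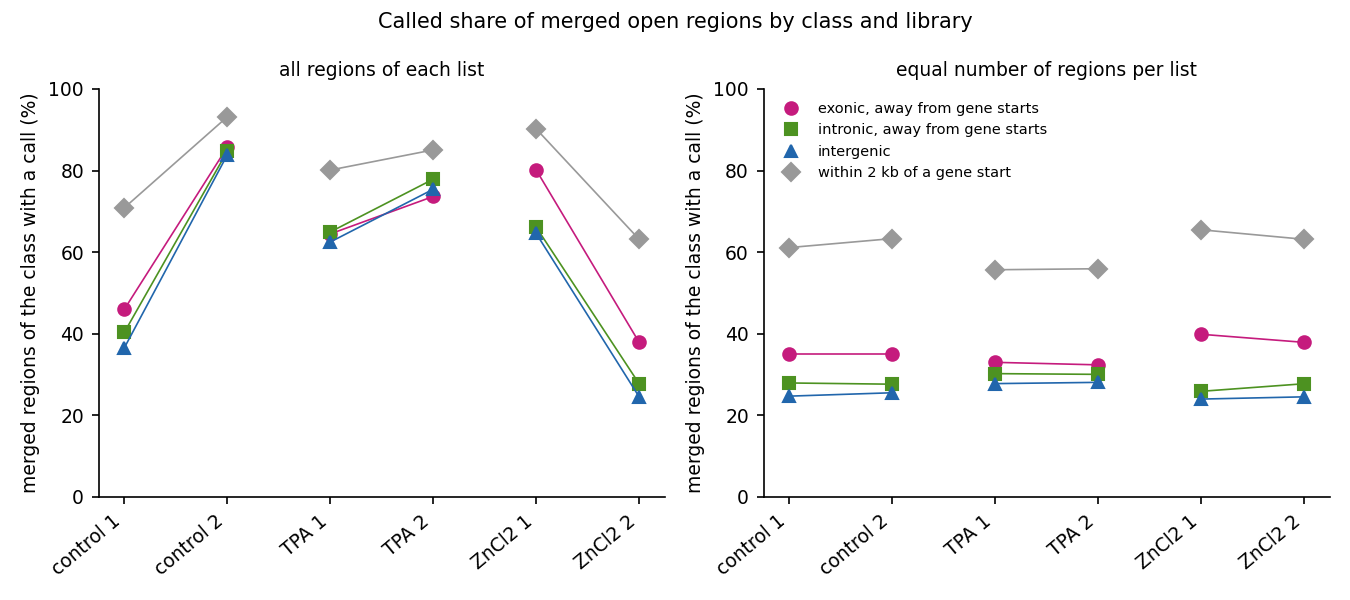
Percent of merged regions with a call, by library, for 4 classes of region (symbols), with all regions of each list on the left and the 18883 highest-scoring regions on the right; lines join the 2 libraries of a group. On the left the shares are highest for the longest list and lowest for the shortest, and on the right exonic members lie above intronic regions in all 6 libraries, by least with TPA and by most with ZnCl2.

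Intronic regions moved the other way with TPA. With an equal number, 27.9% and 27.6% of intronic regions were called in untreated cells, 30.2% and 30.0% under TPA, and 25.9% and 27.7% under ZnCl2. The exonic share minus the intronic share was 7.04 and 7.33 percentage points in untreated cells, 2.77 and 2.32 under TPA and 14.0 and 10.2 under ZnCl2. The 3 groups did not overlap in this gap, which was smallest with TPA and largest with ZnCl2. It differed from control by -4.64 points under TPA and 4.89 under ZnCl2 (exact permutation p = 0.333 for each), the latter 2.97 without ZnCl2 replicate 1. In the full lists the gap was 5.65 and 1.02 points in untreated cells, -0.484 and -4.23 under TPA and 14.0 and 10.2 under ZnCl2, in the same order of groups.

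Scores gave the same order. A region's percentile is the percent of its own list with a lower score, and 673 members (32.4%) were called in all 6 libraries, against 32.01% of all merged regions and 23.6% of intronic regions. For these members the mean percentile minus that of intronic regions called in all 6 was 4.67 and 3.25 in untreated cells, -3.10 and -2.15 under TPA, and 6.74 and 8.30 under ZnCl2. The groups again did not overlap, and the gap differed from control by -6.58 under TPA and 3.56 under ZnCl2 (exact permutation p = 0.333 for each). With percentiles taken among the equal number, which left 444 members called in all 6, the difference under ZnCl2 was 2.29. The mean percentile of the 673 members alone was 59.4 and 76.8 in untreated cells, 65.5 and 69.5 under TPA and 74.8 and 52.0 under ZnCl2. Its difference from control was -0.582 under TPA (exact p = 1) and -4.68 under ZnCl2 (exact p = 0.667), within the spread of the control libraries.

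GC content moved with this result. With an equal number of regions, members with under 40% GC were called in 16.7% and 15.9% of cases in untreated cells, 19.7% and 25.8% under TPA and 13.3% and 15.02% under ZnCl2. Members with at least 60% GC were called in 37.4% and 36.7% in untreated cells, 27.8% and 25.3% under TPA, and 48.0% and 45.9% under ZnCl2. TPA libraries were thus higher than control at low GC and lower at high GC, and ZnCl2 libraries the reverse, also among intronic regions. At 60% GC and over, intronic regions were called in 37.0% and 35.2% in untreated cells, 30.8% and 27.7% under TPA and 46.9% and 45.5% under ZnCl2. Compared within bins of 5 percentage points of GC, the exonic minus intronic gap was 3.52 and 4.17 points in untreated cells, 1.06 and 1.48 under TPA, and 6.85 and 4.14 under ZnCl2. It kept its order of group means but was smaller, and ZnCl2 replicate 2 then fell between the control libraries (TPA minus control -2.57, exact permutation p = 0.333, ZnCl2 minus control 1.65, exact p = 0.667). Within GC bins of the full lists the gap was 2.38 and 2.60 points in untreated cells, 0.379 and -0.404 under TPA, and 4.96 and 4.14 under ZnCl2, and the 3 groups did not overlap (TPA minus control -2.50, ZnCl2 minus control 2.06, exact p = 0.333 for each). The part of GC content in the treatment differences was not tested further.

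**Figure D2:**
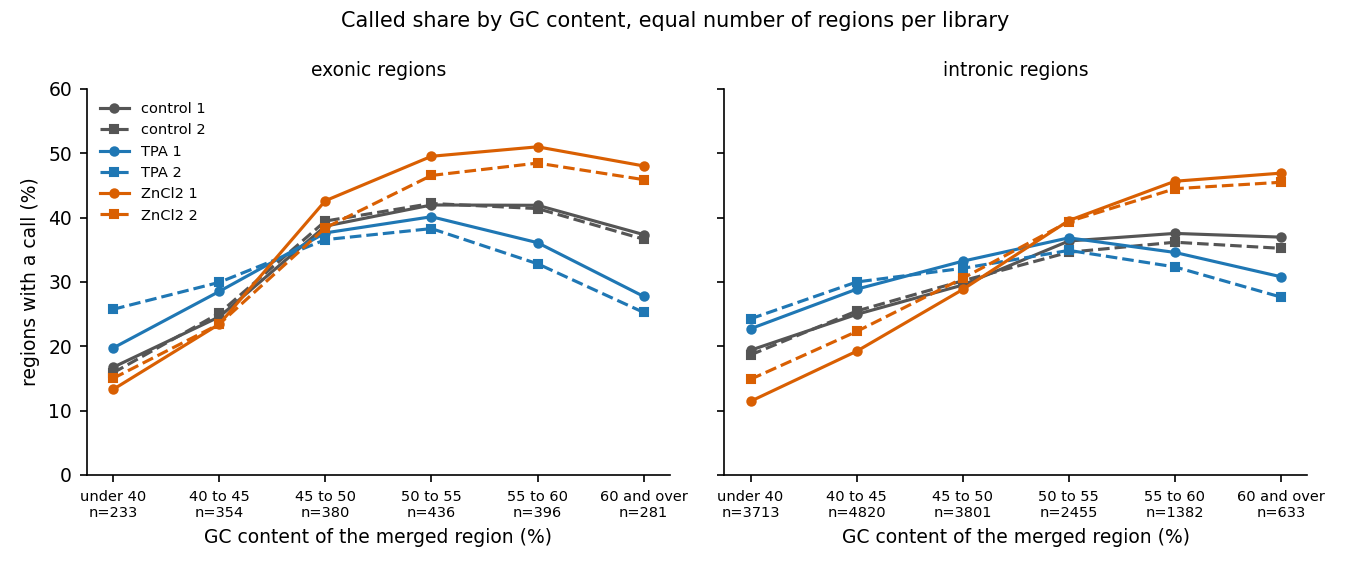
Percent of exonic members (left) and intronic regions (right) with a call in each bin of GC content, equal number of regions per library, 1 line per library with the number of regions under each bin. In both panels the TPA lines cross the control lines from above to below and the ZnCl2 lines from below to above, and at 60% GC and over the exonic shares run from 25.3% to 48.0%.

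The gap also differed between members near and far from transcript starts. For the 1157 members within 2 kb of a transcript start, it was 13.5 and 14.99 points in untreated cells, 7.13 and 7.04 under TPA and 22.6 and 18.6 under ZnCl2. For the 923 members over 2 kb from every transcript start it was -1.05 and -2.27 points in untreated cells, -2.69 and -3.60 under TPA and 3.17 and -0.423 under ZnCl2. The order of groups was kept in both sets, with no overlap. Both gaps were taken against all intronic regions, those near transcript starts included. With both classes limited to regions over 2 kb from every transcript start, the gap differed from control by -2.53 points under TPA and 3.76 under ZnCl2 (exact permutation p = 0.333 for each). Over the 6 libraries the mean percentile of called members was then 3.03 above that of intronic regions (exact sign-flip p = 0.03125). Exonic minus intronic called share in the full lists was -0.65 points under this limit (exact sign-flip p = 0.8125). At an equal number, the called share of far members was 26.9% and 25.4% in untreated cells, 27.5% and 26.4% under TPA, and 29.0% and 27.3% under ZnCl2, so that one TPA library lay between the control libraries. In the full lists, far members were called less often than near members in all 6 libraries, with a mean difference of -12.2 ± 5.95 percentage points (SD, n = 6, two-sided exact sign-flip p = 0.03125, adjusted p = 0.0938 over 12 comparisons of classes).

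**Figure D3:**
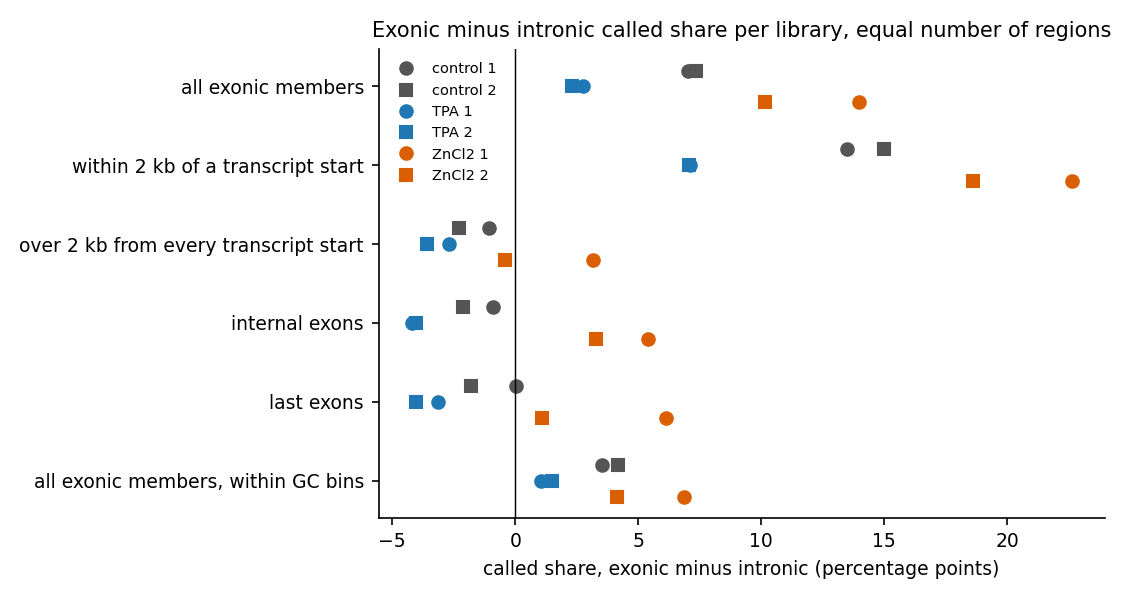
Called share of exonic members minus that of all intronic regions away from gene starts, in percentage points, for each library (circles replicate 1, squares replicate 2) and each subset of members, with an equal number of regions per library. TPA points lie left of and ZnCl2 points right of the control points in every row but the last, where ZnCl2 replicate 2 (4.14) lies between the control replicates.

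Exonic members had a higher mean percentile than intronic regions in each of the 6 libraries, a difference that did not pass 0.05 after adjustment. In the full lists the mean percentile over called regions was higher by 7.10 and 5.75 in untreated cells, 3.34 and 4.03 under TPA and 6.86 and 7.20 under ZnCl2. The mean difference was 5.71 ± 1.67 (SD, n = 6, higher in 6 of 6 libraries, exact sign-flip p = 0.03125, adjusted p = 0.0938). With members at least 50% exonic it was 1.13 (exact p = 0.25). For internal-exon members it was 1.91 ± 2.28 (n = 6, exact p = 0.0625, adjusted p = 0.125) and for last-exon members 1.20 ± 1.98 (n = 6, exact p = 0.219, adjusted p = 0.328). The called share of all members was higher by 4.36 ± 6.89 percentage points, positive in 4 of 6 libraries (exact p = 0.188, adjusted p = 0.321). It was 2.42 points without ZnCl2 replicate 1, 2.34 within GC bins and 2.82 for calls at the center. Its sign was not kept over 2 kb from every transcript start (-0.65 points) or with members at least 50% exonic (-2.58 points). Against intergenic regions the percentile was higher by 6.81 ± 1.65 in 6 of 6 libraries (n = 6, exact p = 0.03125, adjusted p = 0.0938). With 6 libraries 0.03125 is the smallest p that sign flips can give, and no comparison of classes passed 0.05 after adjustment.

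Last and internal exons did not differ beyond the spread over libraries. Last-exon members were called in 40.4% and 83.1% of cases in untreated cells, 58.5% and 69.6% under TPA and 74.7% and 28.8% under ZnCl2. Internal-exon members were called in 36.5% and 80.5% in untreated cells, 56.8% and 68.0% under TPA and 75.8% and 31.0% under ZnCl2. Last exons were ahead in the control and TPA libraries and behind in the ZnCl2 libraries, by 1.11 ± 2.30 points on average (SD, n = 6, exact sign-flip p = 0.281, adjusted p = 0.375). This mean was 0.553 points without control replicate 1, 1.77 without ZnCl2 replicate 2 and 0.282 in the upper 50% of each list. The percentile differed by -0.715 ± 2.13 (n = 6, exact p = 0.531, adjusted p = 0.58). Against intronic regions, the share called differed by -2.22 ± 7.38 points for internal and -1.10 ± 6.00 for last exons (n = 6, adjusted exact p = 0.562 and 0.75).

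Away from transcript starts, last exons were called more often than internal exons. The 478 last-exon members over 2 kb from every transcript start were called in 38.9% and 82.6% in untreated cells, 58.4% and 69.7% under TPA, and 72.8% and 26.6% under ZnCl2. For the 198 such internal-exon members the shares were 29.3% and 77.8% in untreated cells, 53.03% and 66.7% under TPA, and 70.2% and 24.2% under ZnCl2. Last exons were higher in each library, by 4.62 percentage points on average (exact sign-flip p = 0.03125, the smallest possible, not adjusted).

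A stricter comparison counts members called in both libraries of 1 group and in neither of the other. With an equal number of regions, TPA against control gave 36 members called only with TPA, 1.73% of members, beside a background of 1.99% of all merged regions. Called only in control were 65 members, 3.12%, beside a background of 2.41%. For ZnCl2 against control, 52 members (2.50%) were called only with ZnCl2, beside a background of 1.69%, and 20 (0.962%) only in control, beside 1.92%. Members therefore leaned to the control side with TPA and to the treated side with ZnCl2, while intronic regions leaned the opposite way in both. Start-site regions leaned the same way as members, with 1.12% called only with TPA and 5.40% only in control, and 1.84% only with ZnCl2 and 1.16% only in control. Of intronic regions, 2.38% were called only with TPA and 1.33% only in control, and 1.64% only with ZnCl2 and 2.23% only in control.

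These counts had no test, and they depended on the lists. In the full lists, 35 members were called only with TPA (1.68%, background 2.04%) and 31 only in control (1.49%, background 0.701%). For ZnCl2 2 members were called only with ZnCl2 (0.0962%, background 0.172%) and 21 only in control (1.01%, background 1.73%), with the 18883 regions of ZnCl2 replicate 2 limiting the first of these. ZnCl2 set directly against TPA, without the shared control, gave 146 members called only with ZnCl2 (7.02%, background 4.37%) and 49 only with TPA (2.36%, background 4.1%) at equal number. In the full lists the counts were 36 (1.73%, background 0.99%) and 134 (6.44%, background 9.73%). The side with more members thus turned round in the full lists in all 3 comparisons, but not beside the background. Of members called in only 1 group in the full lists, 47.0% were on the control side against TPA, beside 25.6% of all such regions. For ZnCl2 against control 91.3% were on the control side, beside 91.0%, and for ZnCl2 against TPA 78.8% were on the TPA side, beside 90.8%. Beside these backgrounds the lean of members was kept in the comparisons with TPA and nearly absent for ZnCl2 against control.

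**Figure D4:**
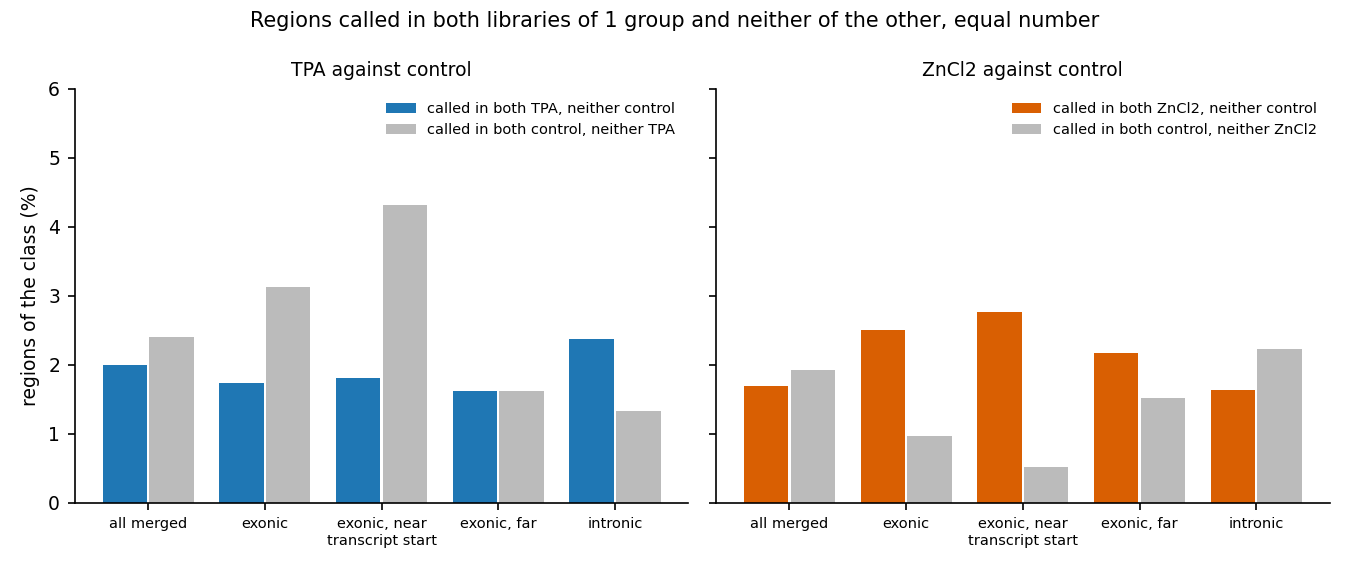
Percent of each class called in both treated and neither control library (coloured bars) and the reverse (grey bars), equal number of regions per library, for TPA (left) and ZnCl2 (right). Grey is the taller bar for exonic members with TPA (3.12% against 1.73%) and the shorter with ZnCl2 (0.962% against 2.50%), and both leans are larger for members near a transcript start than for those far from one.

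At an equal number, members near a transcript start held most of the lean. Of near members, 21 (1.81%) were called only with TPA and 50 (4.32%) only in control, and of far members 15 (1.62%) and 15 (1.62%), beside the backgrounds of 1.99% and 2.41% of all merged regions. With ZnCl2, 32 near members (2.77%) were called only with ZnCl2 and 6 (0.519%) only in control, against 20 (2.17%) and 14 (1.52%) far members, beside backgrounds of 1.69% and 1.92%. The changed members also differed in GC content. Those called only with TPA had a median of 45.7% and those only in control 56.1%, while those called only with ZnCl2 had 54.99% and those only in control 46.0%. This was not particular to members. Over all merged regions the medians were 44.9% and 54.9% for TPA and 52.35% and 42.8% for ZnCl2, in the same order. By exon, 9 internal-exon members (2.25%) were called only with TPA and 9 (2.25%) only in control, and 11 (2.75%) only with ZnCl2 and 2 (0.5%) only in control, beside the same backgrounds. Of last-exon members, 7 (1.23%) were called only with TPA and 13 (2.28%) only in control, and 16 (2.81%) only with ZnCl2 and 8 (1.41%) only in control. In the full lists, 24 far members (2.6%) were called only with TPA and 13 (1.41%) only in control, beside backgrounds of 2.04% and 0.701%. Near members gave 11 (0.951%) and 18 (1.56%). For ZnCl2 the counts were 1 (0.108%) and 15 (1.625%) far and 1 (0.0864%) and 6 (0.519%) near, beside 0.172% and 1.73%. Internal-exon members gave 16 (4%) and 7 (1.75%) for TPA and 1 (0.25%) and 4 (1%) for ZnCl2. Last-exon members gave 13 (2.285%) and 11 (1.933%), and 0 and 9 (1.582%).

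**Figure D5:**
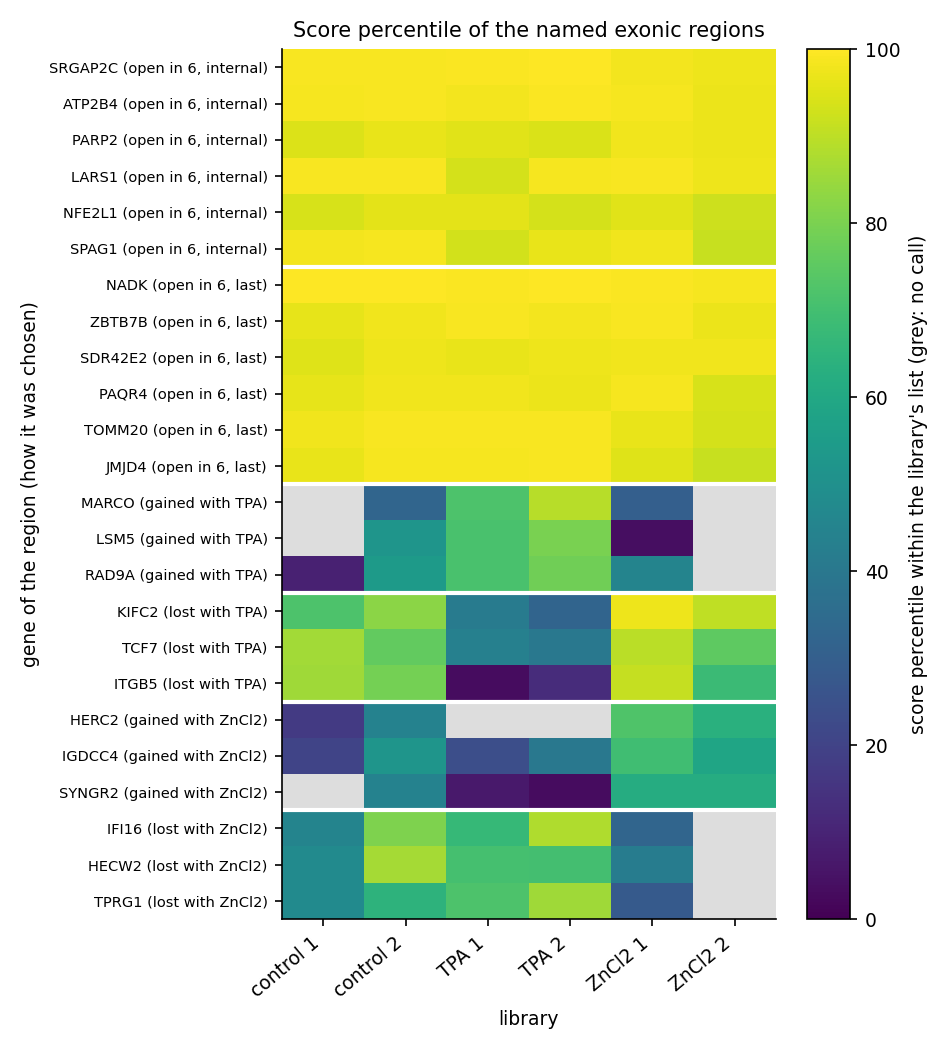
Score percentile within each library's own full list for 24 named members (rows, grouped by how they were chosen) in the 6 libraries (columns), where yellow is high and grey marks no call. The upper 12 rows lie above 91 in every library by choice, and the 12 below differ between groups by choice.

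Among members open in all 6 libraries, the rule named the 6 internal-exon and 6 last-exon members with the highest minimum percentile. NADK, which encodes NAD kinase, led the last exons with percentiles of 99.6 and 99.8 in untreated cells, 99.6 and 99.7 under TPA, and 99.4 and 98.5 under ZnCl2. The member spans 24770 bp (chr1:1740547-1765316), and its center was inside a call in 1 library only. The last exon of ZBTB7B, a zinc-finger transcription factor gene, lay in a 5420 bp member (chr1:155014941-155020360) whose center was called in all 6 libraries. Its percentiles were 96.4 and 98.0 in untreated cells, 99.2 and 98.1 under TPA, and 99.2 and 96.9 under ZnCl2.

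SDR42E2, of the short-chain dehydrogenase family, had percentiles of 95.2 and 97.5 in untreated cells, 96.6 and 97.3 under TPA and 97.8 and 97.9 under ZnCl2, and its center was called in all 6. The ZnCl2 libraries lay above the other 4, and the control and TPA libraries overlapped. The other last-exon members were PAQR4, TOMM20, the mitochondrial import receptor gene, and JMJD4, with lowest percentiles of 93.9, 93.7 and 91.8 and centers called in 3, 2 and 2 libraries.

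Of the internal exons, SRGAP2C, a human-specific duplicate of SRGAP2, had percentiles of 99.1 in both control replicates, 99.6 and 99.8 under TPA and 98.3 and 97.3 under ZnCl2. In this member (chr1:121373931-121375860), 8 of 10 sampled 32-base pieces occur elsewhere in hg38. Its reads may therefore not all be placed with certainty among copies, which was not tested. NFE2L1, which encodes a bZIP transcription factor of proteasome genes, had 93.8 and 95.9 in untreated cells, 95.9 and 93.6 under TPA and 95.6 and 92.5 under ZnCl2, with none of its 10 pieces repeated. The groups overlapped at NFE2L1. SPAG1, a dynein assembly factor gene, was called at its center in all 6 libraries, with percentiles from 91.4 to 98.7. The members at ATP2B4, a calcium pump gene, PARP2, a poly(ADP-ribose) polymerase gene, and LARS1, the leucyl-tRNA synthetase gene, were 43280, 25750 and 38970 bp wide. Their centers were called in 2, 2 and 1 libraries. The centers of SPAG1 and PARP2 lay 319 and 244 bp from a transcript start, those of SRGAP2C, NFE2L1, ATP2B4 and LARS1 over 2 kb.

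MARCO, a scavenger receptor gene of macrophages, headed the members called only with TPA at equal number. It was not called in control replicate 1 and had percentiles of 32.5 in control replicate 2, 72.2 and 89.3 in the TPA replicates and 30.3 in ZnCl2 replicate 1, with no call in ZnCl2 replicate 2. Both TPA libraries were above all others. LSM5, of the U6 snRNA-binding Lsm ring, had 71.3 and 79.7 under TPA, 52.3 in control replicate 2 and 3.52 in ZnCl2 replicate 1. RAD9A, a checkpoint clamp gene, had 71.3 and 78.2 under TPA and 9.08 and 54.6 in untreated cells. The centers of LSM5 and RAD9A lay 192 and 126 bp from a transcript start, that of MARCO 18606 bp.

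Of the 65 members called only in control against TPA, the 3 of highest mean percentile were at KIFC2, TCF7 and ITGB5. At KIFC2, a kinesin gene, the member was 3950 bp wide, with its center on the last exon and inside a call in 2 libraries. It had percentiles of 72.0 and 82.6 in untreated cells, 41.5 and 32.2 under TPA, and 97.6 and 90.5 under ZnCl2. The 3 groups did not overlap and the region has 65.3% GC. ITGB5, the integrin β5 gene, had 85.6 and 79.0 in untreated cells, 3.39 and 12.6 under TPA, and 91.1 and 68.0 under ZnCl2, over a first exon whose center lay 184 bp from a transcript start. TCF7, a transcription factor of Wnt signaling, had 86.3 and 76.0 in untreated cells, 43.4 and 40.1 under TPA and 89.5 and 75.1 under ZnCl2. At ITGB5 and TCF7 the TPA libraries stood below the other 4, and control and ZnCl2 overlapped.

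HERC2, an E3 ubiquitin ligase gene, headed the members called only with ZnCl2. It had percentiles of 16.8 and 44.2 in untreated cells, no call in either TPA library, and 72.4 and 63.6 under ZnCl2. In this member 5 of 10 pieces occur elsewhere in hg38, and its center was inside a call in 2 libraries. IGDCC4, an immunoglobulin superfamily gene, had 20.4 and 52.3 in untreated cells, 23.9 and 40.1 under TPA and 69.2 and 58.8 under ZnCl2. SYNGR2, a synaptogyrin gene, was not called in control replicate 1 and had 44.2 in control replicate 2, 6.79 and 3.39 under TPA, and 61.9 and 62.1 under ZnCl2, with its center inside a call in 3 libraries. In all 3 the ZnCl2 libraries were the highest pair.

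Of the 20 members called only in control against ZnCl2, the 3 of highest mean percentile were at IFI16, a DNA sensor gene, HECW2, an E3 ligase gene, and TPRG1. IFI16 had 45.2 and 80.6 in untreated cells, 67.0 and 87.9 under TPA and 32.5 in ZnCl2 replicate 1. HECW2 had 47.9 and 86.4 in untreated cells, 70.3 and 70.1 under TPA and 41.9 in ZnCl2 replicate 1. TPRG1, whose last exon held the member, had 47.9 and 64.7 in untreated cells, 72.2 and 85.9 under TPA and 28.1 in ZnCl2 replicate 1. None of the 3 was called in ZnCl2 replicate 2, the shortest list, and their GC content was between 38.9% and 41.2%.

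A single gene rarely held several members. Of the 1885 genes, 1709 held 1 member, 160 held 2, 13 held 3 and 3 held 4. DST, which encodes the cytoskeletal linker dystonin, had 4 members, of which 1 was open in all 6 libraries, with percentiles of 89.3 and 94.2 in untreated cells, 84.2 and 91.7 under TPA and 96.8 and 89.8 under ZnCl2. The DST member centered on internal exon 16 of 104 was higher in both TPA libraries (62.1 and 61.1) than in control (20.4 and 54.6) and ZnCl2 replicate 1 (9.90). It had no call in ZnCl2 replicate 2, was 30.5% exonic, and its center lay 297 bp from a transcript start. SH3TC2 had 4 members in 1 last exon of 22753 bp, and the member at chr5:149000902-149003891 had percentiles of 88.8 and 96.5 in untreated cells, 95.9 and 96.9 under TPA and 86.9 and 76.1 under ZnCl2. Members of 1 exon share their source and are not replicates of each other. STN1, of the telomere-capping CST complex, had 4 members, none open in all 6 libraries. ANK2, which encodes an ankyrin, and C2CD3, a centriole gene, had 3 each, of which 1 ANK2 member, in an exon of 6255 bp, was open in all 6.

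Members were found in 9.44% of protein-coding genes. Of the 614 C2H2 zinc-finger genes, 41 (6.68%) held 43 members, 18 of them in last exons, and 13 were open in all 6 libraries, beside 32.4% of all members and 32.01% of all merged regions. Of these 43 members 55.8% and 79.1% were called in untreated cells, 60.5% and 83.7% under TPA and 81.4% and 34.9% under ZnCl2, beside 46.0%, 85.8%, 64.5%, 73.7%, 80.1% and 37.9% of all members. Against control, 2 zinc-finger members were called only with TPA and 1 only in control, and 1 only with ZnCl2 and 0 only in control, at equal number, beside backgrounds of 1.99%, 2.41%, 1.69% and 1.92% of all merged regions. KLF5, a Krüppel-like factor of epithelia, had percentiles from 96.0 to 98.8 over the first exon of its canonical transcript, with its center 196 bp from the nearest annotated transcript start and 4225 bp from the gene's start. ZNF658 was not called in TPA replicate 1, and 8 of its 10 pieces are repeated.

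Of 36 zinc transporter and metallothionein genes, 7 held a member each, 4 of them open in all 6 libraries, as were 32.4% of all members. SLC39A4, a zinc importer, had percentiles of 89.9 and 94.0 in untreated cells, 59.4 and 61.1 under TPA and 88.2 and 86.3 under ZnCl2 over internal exon 6 of 12. The TPA libraries lay below the other 4, in a member of 65.9% GC whose center is 335 bp from a transcript start. SLC39A10, another importer, had 85.6 and 95.9 in untreated cells, 86.5 and 91.7 under TPA and 81.2 and 81.1 under ZnCl2. SLC39A13 had 56.8 and 86.8 in untreated cells, 80.1 and 76.5 under TPA and 76.3 and 55.2 under ZnCl2. SLC30A10, an exporter, had 58.9 and 82.6 in untreated cells, 79.3 and 93.9 under TPA, 59.7 in ZnCl2 replicate 1 and no call in ZnCl2 replicate 2. At equal number 1 of the 7 members was called only in control against TPA (background 2.41%), 0 only with TPA, and 0 in either direction with ZnCl2. That member, named after its values were seen, was at the importer gene SLC39A8, with percentiles of 47.9 and 75.3 in untreated cells, 28.5 and 34.3 under TPA and 78.6 and 68.0 under ZnCl2.

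Of 55 keratin genes KRT16 alone held one, over its first exon, with percentiles of 24.3 and 36.1 in untreated cells, 74.2 and 61.1 under TPA, 51.3 in ZnCl2 replicate 1 and no call in ZnCl2 replicate 2. In the KRT16 member 5 of 10 pieces occur elsewhere in hg38. Of 32 laminin and integrin genes 8 (25%) held 10 members, 6 in internal exons and 3 open in all 6 libraries, beside 32.4% of all members. Of 19 desmosome and plakin genes 4 (21.1%) held 8 members, of which 2 were called only with TPA and 0 only in control, beside backgrounds of 1.99% and 2.41% of all merged regions. Of 44 collagen genes 8 (18.2%) held 8 members, of which COL6A3 and COL16A1 were open in all 6. Of 53 clustered protocadherin genes PCDHGA1 alone held one, centered on its last exon, which the gamma cluster shares. This member was 9200 bp wide and 39.1% exonic, its center was inside a call in 1 library, and its percentiles, from 81.1 to 98.3, are those of the whole region.

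Of 55 genes of chromatin-modifying enzymes, 12 (21.8%) held 14 members, and 7 of these were open in all 6 libraries, as were 32.4% of all members. KDM2A and KDM2B, lysine demethylase genes, had percentiles from 87.7 to 94.9 and from 85.7 to 96.1. NSD2, a histone methyltransferase gene, had 67.7 and 70.6 in untreated cells, 86.5 and 85.9 under TPA and 46.8 and 35.2 under ZnCl2. The 3 groups did not overlap in percentile, but the lists differ in length. By rank from the highest score, ZnCl2 replicate 2 (11616) lay between the control libraries (7716 and 12817). The list's calls in only 1 group at equal number were at other genes. Against TPA 1 member was called only in control, at ARID1A (background 2.41%), and 0 only with TPA, and against ZnCl2 1 was called only with ZnCl2, at KDM6B (background 1.69%), and 0 only in control, both genes being named after their values were seen. Of 30 AP-1 and immediate early genes 3 held a member each, at FOSB, MAFF and BHLHE40. FOSB had 85.6 and 84.1 in untreated cells, 92.8 and 90.0 under TPA and 77.4 and 60.5 under ZnCl2, over a member of 36440 bp whose center was inside a call in 1 library. The groups did not overlap in percentile, but by rank TPA replicate 2 (3986) lay between the control libraries (3431 and 6906). Of 15 genes of EGF receptors and their ligands 3 held a member each, at NRG1, ERBB3 and NRG2. The 39 HOX genes and the 29 p53 family and target genes held none. The members named from these lists were taken as those of highest mean percentile, and their values are descriptions with no test.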

How the data were processed

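Each library's open regions were called by the authors with HMMRATAC (its version is not given in the sources used here), after adapter trimming with BBDuk and mapping to hg38 with HISAT2, and 2 sequencing runs were combined per library. The submitters' processing notes name FastQC 0.11.8, HISAT2 2.1.0 and SAMtools 1.8. The deposited lists give 1 score per region, whole numbers of at least 30 on a scale that is not stated, so scores were used only as ranks within a list. Blacklisted regions were not removed, and the depth is unknown because the lists hold no read counts. On chromosome Y and other contigs, 74 to 217 regions of each list were left out. Members and gene lists were chosen with earlier results of these data known.

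A library called a merged region when at least 1 of its regions lay in it, and the highest of several scores gave the percentile. Regions within 2 kb of a gene start were classed as start sites first, then as exonic, intronic, in other genes or intergenic. For an equal number, ties at the last score were broken by genome order. Repeats were 10 evenly spaced 32-base pieces per region that occur again in hg38 on either strand. Motifs were searched in 300 bases at the center. Groups were compared over libraries by two-sided exact permutation tests, and classes by exact sign-flip tests over 6 libraries with Benjamini-Hochberg adjustment over 12 comparisons. The exonic minus intronic gap, GC bins, calls at the center and ZnCl2 against TPA were added after seeing the data. Named members were the 6 internal-exon and 6 last-exon members open in all 6 libraries with the highest minimum percentile, 1 per gene, the 3 members called only in each group of a comparison with the highest mean percentile, the 5 genes with most members (ties by symbol) and up to 4 members per gene list. Alternatives were the upper 50% of each list, all regions, coverage of 50%, distances of 2 kb from transcripts and 5 kb from genes, 50% exonic bases, no repeated pieces, own-region centers, mean scores, any-transcript last exons, each library left out and the replicate number as a block. The procedures were tested on simulated data. Computation used samtools 1.23.1, bedtools 2.31.1, Python 3.11.15, pysam 0.24.0, SciPy 1.17.1, pandas 2.3.3, NumPy 2.4.6 and Matplotlib 3.10.9.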

Additional observations from a re-analysis of the deposited data

Results flagged for a closer look

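Several values lay on one side of both control libraries in both TPA libraries and on the other side in both ZnCl2 libraries. With 2 libraries per group the difference was not tested beyond an exact permutation test that cannot go below 0.333. ZnCl2 minus TPA was 6.202 percentage points for the share of members called at an equal number of regions. For the exonic minus intronic gap it was 9.53 points at an equal number, 14.5 points in the full lists, and 10.1 for the percentile of regions called in all 6 libraries. Members made up 4.06% and 4.15% of the merged regions called in untreated cells, 3.97% and 3.92% under TPA and 4.65% and 4.33% under ZnCl2, a difference of 0.548 percentage points between ZnCl2 and TPA. At an equal number this difference was 0.713 percentage points. Under the centers of each library's own regions the shares were 4.49% and 4.13% in untreated cells, 4.28% and 4.29% under TPA and 4.91% and 4.42% under ZnCl2, and both TPA libraries and ZnCl2 replicate 2 then lay between the control libraries.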

How the results depend on the processing

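The exonic minus intronic gap, treated minus control, kept its sign under each alternative run, GC bins, calls at the center and single libraries left out included. Without 1 library it ranged at an equal number from -4.86 to -4.42 points for TPA and from 2.97 to 6.80 for ZnCl2, and no exact test of 2 libraries against 2 could pass 0.05. The called share of members did not hold as firmly. At an equal number, TPA minus control was 0.867 points over 2 kb from every transcript start and 3.17 in the full lists, and ZnCl2 minus control -6.88 in the full lists. In the full lists TPA minus control was -9.30 points when calls had to cover 50% of the region and -0.865 for calls at the center, and without 1 library it ran from -16.7 to 23.05 for TPA and from -28 to 14.3 for ZnCl2. The percentile of members called in all 6 libraries, TPA minus control, was 3.08 over 2 kb from transcript starts and 0.000181 with 50% exonic bases. Among the equal number, with 444 members called in all 6, ZnCl2 minus control was 0.0881. These 444 are fewer than the 673 of the full lists. Without 1 library the percentile difference in the full lists ran from -9.69 to 8.12 for TPA and from -16.1 to 6.08 for ZnCl2.

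Exonic minus intronic called share was -0.65 points over 2 kb from every transcript start, -2.58 with 50% exonic bases and 6.7 (exact p = 0.03125) in the upper 50% of each list. Its percentile was 1.13 (exact p = 0.25) with 50% exonic bases and 5.42 to 6.19 (exact p = 0.0625, the smallest with 5 libraries) without 1 library. Last minus internal exons gave a called share of 4.62 points over 2 kb from transcript starts and -0.0321 for last exons of any transcript, and a percentile of 2.15 over 2 kb from transcript starts, -1.26 (exact p = 0.03125) in the upper 50%, and -1.09 to 0.0282 without 1 library, positive without control replicate 1.

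Counts of members called in only 1 group moved by over 1.5 times in many settings. Settings that kept a subset of the 2080 members left fewer to count, so these counts are not on equal terms. Over 2 kb from transcript starts 923 members remained, of which 15 (1.62%) were called only with TPA and 15 (1.62%) only in control. Against control 20 (2.17%) were called only with ZnCl2, and ZnCl2 against TPA gave 43 (4.66%) and 30 (3.25%). Of all members these shares were 1.73%, 3.12%, 2.50%, 7.02% and 2.36%. With 50% exonic bases 1024 members remained, and the counts were 15, 27, 27 and 8 in the order of the report. For ZnCl2 against TPA they were 67 and 19. Without the 778 members that held a repeated piece, 39 were called only in control against TPA and 89 only with ZnCl2 against TPA. With calls over 50% of the region, 43 were called only in control against TPA. The full lists gave 31 only in control against TPA, 2 only with ZnCl2, and 36 and 134 for ZnCl2 against TPA. Without 1 library the counts were 61 to 75 and 90 to 119 for TPA, 91 to 121 and 39 to 58 for ZnCl2, and 76 to 94 only with TPA against ZnCl2, since fewer libraries had to match. Apart from the size of these subsets and the number of libraries to match, the cause of the changes was not tested.

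As a replicate block, the number left each difference in means as it was, with exact p of 0.5 or 1, and counts within each number averaged 110.5 and 158 for TPA and 169 and 87.5 for ZnCl2. Over all merged regions, deviations of same-numbered libraries correlated at 0.161 for control and TPA and -0.262 for control and ZnCl2. For TPA and ZnCl2 the correlation was 0.0239. The order of list lengths was opposite in control (25025 and 44637 regions) and ZnCl2 (38055 and 18883), which may enter these correlations. They therefore cannot show whether same-numbered libraries were prepared together, which was not tested. Depth is unknown, and list length, from 18883 to 44637 regions, limits what the shortest list can show.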

Other observations

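First-exon members, all 218 but 1 of them within 2 kb of a transcript start, were called more often than internal-exon, last-exon and other-transcript members in each library, the 8 single-exon members being too few to rank. At an equal number of regions they were called in 55.05% and 60.6% of cases in untreated cells, 49.5% and 48.2% under TPA, and 67.0% and 61.5% under ZnCl2. The groups did not overlap, as for members near transcript starts in general. The AP-1 letters TGANTCA were within 150 bases of the center in 2.75% of them and in 26.4% of last-exon members, where the median GC content was 54.2% and 49.6%.

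Members centered on 3' untranslated sequence held the CTCF consensus in 3.63% of cases and those on coding sequence in 1%. At an equal number, 3' untranslated members were called in 27.8% and 26.7% in untreated cells, 28.7% and 26.7% under TPA, and 31.7% and 29.3% under ZnCl2, so that control and TPA overlapped. Coding members were called in 34% and 32.8% in untreated cells, 30.5% and 30.7% under TPA and 37.8% and 37.2% under ZnCl2, without overlap.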
